A study of Mus musculus with 10 samples.

Results

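The cells described here were E0771 tumor cells with at least 3 RNA molecules from a set of 9 interferon-stimulated genes. E0771 is a mouse mammary carcinoma line, and the cells came from tumors grown for 21 days in a mammary fat pad of female mice aged 16 weeks on a C57BL/6 background. Single-cell RNA was counted as unique molecular identifiers (UMIs, each standing for 1 captured RNA molecule) in 10 libraries. The 5 WT libraries held 5 tumors and the 5 EC-AGO1-KO libraries held 7, since KO 2_plus3 and KO 5_plus6 each pooled 2 small tumors. KO mice carried floxed Ago1 and Cdh5-Cre, which deletes the gene in endothelial cells (ECs) of the host, and WT were littermates. The implanted tumor cells had intact Ago1 in both groups, so KO against WT compares the same line in different hosts. Library WT batch1 and library KO batch1 formed batch 1, and the other 4 WT and 4 KO libraries formed batch 2.

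A cell was taken as a tumor cell with at least 3 UMIs of Cdh13, Pvt1, Esx1, Fmnl2 and Aebp1 together and no UMI of 6 leukocyte genes (Ptprc, C1qa, C1qb, C1qc, Csf1r, Skap1), which gave 51413 tumor cells. Of these, 46650 were below a limit of 3 UMIs of 6 mitosis genes (Mki67, Top2a, Cenpe, Cenpf, Kif11, Anln). Such a cell was a member if Ifit1, Ifit2, Ifit3, Rsad2, Usp18, Herc6, Ddx60, Gbp3 and Parp14 gave at least 3 UMIs together. The rule found 1011 members among 65298 cells, 416 in WT and 595 in KO libraries. They were 2.17% of the 46650 tumor cells below the mitosis limit. The 37872 cells below that limit with no UMI of the 9 genes served as the comparison and are called I = 0 cells below. Because measured values of the 9 genes chose the members, their levels in members are a description and were not tested.

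Interferons are secreted proteins that bind receptors on nearly every cell. The receptors activate the kinases JAK1 and TYK2, which phosphorylate STAT proteins. With IRF9 these enter the nucleus and bind the interferon-stimulated response element (ISRE), and a large set of interferon-stimulated genes is then transcribed. Their products block viral replication, raise antigen presentation and attract leukocytes, and in tumors the same program is known both from interferon made by immune cells and from sensing of nucleic acids inside the tumor cell.

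The promoters of members' genes show what that element looks like. The core GAAANNGAAA was searched on both strands of the 250 bases before each gene start in RefSeq (GRCm38.p6), and 978 of 32851 starts (2.98%) held it. Of the 9 rule genes, 7 had a promoter entry, and Ifit1, Ifit3, Rsad2, Ddx60 and Gbp3 held the core. Of the 15 genes with the largest rises outside the rule, 11 had an entry, and Isg15, Stat2, Gbp7, Mndal and Tmem140 held it. Over all genes higher in members, 20 of 299 with an entry (6.69%) held it, beside 133 of 4515 tested genes (2.95%). Among genes lower in members, 14 of 395 (3.54%) held it. A match is a run of letters and not a shown binding site. Stretches of 3 promoters are printed 5′ to 3′ on the gene's strand with the matches in capitals, because Ifit1 and Rsad2 are antiviral genes of the rule and Isg15 is the best-known gene outside it.
Ifit1 (chr19:34640770-34640828, plus strand): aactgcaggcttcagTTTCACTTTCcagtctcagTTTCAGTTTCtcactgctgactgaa
Rsad2 (chr12:26456548-26456587, minus strand): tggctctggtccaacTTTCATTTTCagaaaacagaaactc
Isg15 (chr4:156200860-156200911, minus strand): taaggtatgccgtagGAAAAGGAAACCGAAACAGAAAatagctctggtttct
The Ifit1 stretch holds 2 matches and that of Isg15 holds 3 overlapping ones. Capitals that start with T are the core read on the opposite strand.

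Depth and RNA make-up set the batches apart before any comparison. Median UMIs per tumor cell below the mitosis limit were 9157 and 11413 in WT batch1 and KO batch1, and lay between 618 and 1186 in batch 2. Ribosomal protein genes took 223890 and 216060 CPM (UMIs scaled to a total of 1000000 UMIs of the same cells) in I = 0 cells of batch 1 but between 23004 and 36189 in batch 2. Batch 1 gave 2162 cells and 61 members, and batch 2 gave 63136 cells and 950 members. Any 2 libraries shared at most 28 cell barcodes (WT 4 and KO 1, 0.335% of the smaller). Members had more UMIs than I = 0 cells in every library, with medians of 827 to 1454 against 594 to 1156 in batch 2.

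Most members sat near the limit of the rule. Among tumor cells below the mitosis limit, 6217 had 1 UMI of the 9 genes, 1550 had 2, 530 had 3 and 217 had 4, and the highest count was 67. In batch 2, 354 members showed 2 of the 9 genes and 387 showed 3. Of all members, 55 reached the limit through 1 gene. One member of batch 1 showed all 9 genes.

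Herc6, a ubiquitin ligase family member that attaches ISG15 to proteins in mice, gave 1131 of the UMIs that chose members. Usp18, the protease that removes ISG15 and damps the receptor, gave 742, and Rsad2, which makes an antiviral nucleotide (viperin), gave 729. Parp14 gave 571, the helicase gene Ddx60 gave 529, Ifit1 gave 370, Gbp3 gave 274, Ifit2 gave 132 and Ifit3 gave 62. These are UMI numbers that were not divided by gene length and do not rank expression. The mix differed between batches. Ifit1, whose product holds viral RNA away from ribosomes, was seen in 54.8% and 73.3% of members in the batch 1 libraries but in 6.38% to 26.1% in batch 2. Herc6 was seen in 54.8% and 60% in batch 1 and in 63.1% to 69.1% in batch 2. At the locus level, Herc6 spans chr6:57581000-57664632 and Ifit1 chr19:34640871-34650009 (GENCODE, GRCm38).

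Genes that mark the tumor line were present in members. Pvt1, a long noncoding RNA next to Myc, was seen in 87.1% and 93.3% of members in batch 1 and in 96.1% to 100% in batch 2, but it is a gene of the rule. Outside the rule, 11 of 20 tumor identity genes were tested, of which 1 was higher and 5 were lower. Against I = 0 cells matched to members on UMIs, 9 were tested, with 1 higher and 0 lower. S100a6 went from -0.50 to -0.31 there and Lgals1 from -0.51 to -0.33, so smaller falls of these genes remained that did not pass. The median of the tested list genes was -0.19 in the main fit and -0.20 against matched cells. Summed, the 20 genes were lower in members than in I = 0 cells in all 10 libraries. Vim, a mesenchymal filament gene that E0771 cells express, was lower in members by a log2 fold change of -0.31 ± 0.06 (SE, adjusted p = 2.18e-05). Myc was higher by 0.25 ± 0.07 (adjusted p = 0.00688) but did not pass without the filter (0.05, edgeR adjusted p = 0.891). That fit moved other genes down as well, such as Rnf213 from 1.94 to 1.73 and Gapdh from -0.58 to -0.77. The cause of the lost call was not tested.

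Genes outside the rule rose with the rule count. The list of interferon-stimulated effectors held 71 measured genes. One of them, Zc3hav1, a zinc-finger antiviral gene, gave 3313 of the 12560 list UMIs in members, so the remaining 70 were summed. In batch 2 their level was 1561 ± 266 CPM (SD, n = 8 libraries) in I = 0 cells, 2351 ± 303 in cells with 1 UMI of the rule genes and 3431 ± 233 with 2. Just inside the limit, cells with 3 UMIs had 4122 ± 603. Cells with 4 UMIs had 4673 ± 688, and those with 5 or more had 5911 ± 626. Libraries ranged from 2999 to 3633 at 2 UMIs and from 2795 to 4655 at 3 UMIs. The overlap across the limit came from WT 5 alone, at 2795 with 3 UMIs (29 cells). Every other library of batch 2 was at 3808 or above with 3 UMIs. In batch 1 the levels were 2117 ± 9.65 at 0 UMIs, 3360 ± 204 at 3 and 7732 ± 632 at 5 or more (SD, n = 2). These sums describe the cells and were not tested.

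**Figure D1:**
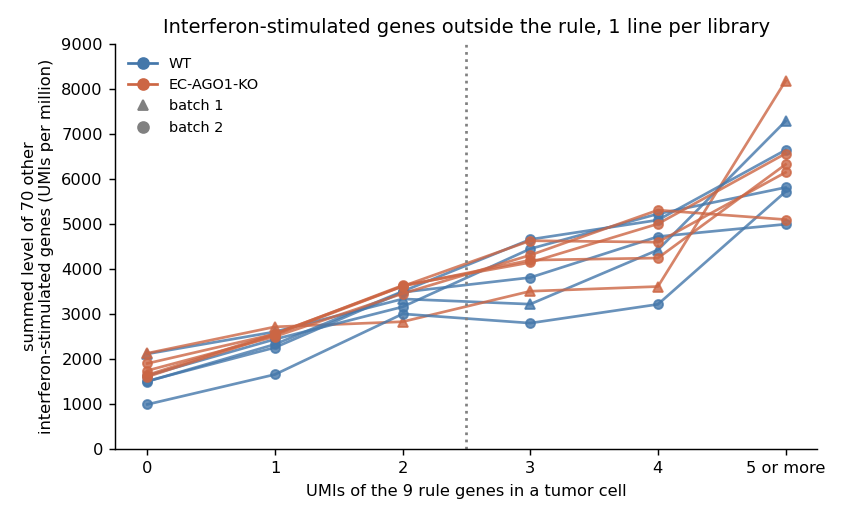
Summed level of 70 interferon-stimulated genes outside the rule (CPM, y axis) in tumor cells below the mitosis limit, grouped by their number of UMIs of the 9 rule genes (x axis), with 1 line per library and the limit of the rule as a dotted line. In batch 2 the level went from 1561 at 0 UMIs to 5911 at 5 or more on average, with no step at the limit.

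Members were then compared with I = 0 cells of the same library across all genes, on UMIs summed per library with the library as a block (edgeR quasi-likelihood test, Benjamini-Hochberg adjustment, n = 10 libraries). The 26 genes of the rule were left out. Of 5780 genes tested, 388 were higher in members (6.71%) and 513 were lower (8.88%). Among the 64 genes that rose by more than 1 on the log2 scale, 38 belonged to the lists of interferon genes, in which chemokines are counted here. Of the 5780 tested genes, these lists held 34 effectors, 12 MHC class I genes and 9 receptor, kinase and STAT genes. They also held 7 nucleic acid sensors and 2 each of IRF genes, GTPases and chemokines. The lists were chosen with earlier results of these data known. Falls were smaller, and 5 genes fell by more than 1. Against I = 0 cells drawn to match members on UMIs, 2793 genes could be tested, with 139 higher and 213 lower. Of the 388 rises, 285 were tested there and 136 passed, and of the 513 falls 381 were tested and 198 passed.

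Of the 388 higher genes, 54 were on the interferon lists, chemokines included, whose tested genes are counted above, and 322 were on no list. Among the lists, the effectors held the most higher genes. Of the 71 genes, 34 passed the filter on low counts, and 32 of these were higher and 0 lower, with a median log2 fold change of 1.54 beside -0.02 for all genes tested. A gene could pass the filter through members alone. With no filter all 71 were tested and 56 were higher, beside 266 of 25803 genes. Isg15 encodes the ubiquitin-like protein that conjugates to other proteins. Its level in members was 809 and 787 CPM in WT batch1 and KO batch1, against 57.2 and 88.2 in I = 0 cells. In batch 2 it was between 8.02 and 68.2 in members and between 3.98 and 15.4 in I = 0 cells, from 1 to 14 UMIs per library. The log2 fold change was 2.62 ± 0.19 (SE, adjusted p = 3.29e-19), and Isg15 was higher in members in all 10 libraries. It was 1.56 in batch 2 alone and 3.43 in batch 1 alone.

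Oasl2 and Oasl1, relatives of the enzymes that make 2′-5′ oligoadenylates, rose by 2.79 ± 0.18 and 3.48 ± 0.32. Oasl2 was between 79.5 and 181 CPM in members and between 2.60 and 24.2 in I = 0 cells, so the groups did not overlap in any library. Ifi44 rose by 2.42 ± 0.14 and Cmpk2, the neighbor of Rsad2 that supplies nucleotides for its reaction, by 2.88 ± 0.31. Oasl1 and Cmpk2 averaged 3.34 and 4.96 CPM in I = 0 cells and could pass the filter through members alone. Rnf213, a very large ubiquitin ligase with antimicrobial activity, was between 617 and 874 CPM in members of batch 2 and between 123 and 220 in I = 0 cells, a log2 fold change of 1.94 ± 0.07. Trim34a, Tmem140 and Mndal rose by 2.26 ± 0.15, 2.15 ± 0.16 and 2.24 ± 0.19. Mndal overlaps the related genes Ifi203 and Ifi211, and its value is uncertain for that reason. Zc3hav1 rose by 0.47 ± 0.05, a small change from a high level.

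Of 16 measured genes of nucleic acid sensing, 7 were tested and 6 were higher, with a median of 1.73. With no filter 7 of 16 were higher, with a median of 0.71. Aim2, a DNA sensor, was tested and did not pass (0.25 ± 0.20). Ifih1 (MDA5), which binds long double-stranded RNA, was 76.1 and 84.7 CPM in members of WT batch1 and KO batch1 and between 115 and 201 in batch 2. In I = 0 cells it was between 7.56 and 33.5 over all libraries, below every member value. Its log2 fold change was 2.62 ± 0.14 (adjusted p = 2.23e-25). Dhx58 (LGP2), a regulator of that sensor, rose by 2.29 ± 0.15, Ddx58 (RIG-I) by 1.73 ± 0.12 and Eif2ak2 (PKR), which stops translation on double-stranded RNA, by 1.87 ± 0.15. Trim25, the ligase that acts with RIG-I, rose by 1.32 ± 0.13.

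The transcription factors of the pathway followed. Of 18 receptor, kinase and STAT genes, 9 were tested and 5 were higher, while the values of the receptor subunit Ifngr2 (0.34 ± 0.14) and of Jak1 (-0.03 ± 0.10) did not pass. Stat2 was between 58.8 and 222 CPM in members and between 5.20 and 54.2 in I = 0 cells, with the log2 fold change at 2.19 ± 0.14 and each library's member value above its own I = 0 value. Stat3, which carries signals of other cytokines, rose by 0.56 ± 0.08. Of 7 IRF genes, 2 were tested. Irf2, known as a repressor of the response, rose by 0.66 ± 0.12, and Irf3 (0.21 ± 0.25) did not pass. Irf7 was under the filter and had 28 and 46 UMIs in members of WT batch1 and KO batch1 but 0 to 7 per library in batch 2.

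Interferon genes themselves were nearly unseen. Over the 1011 members, 12 interferon ligand genes gave 2 UMIs together, and 10 of the 12, Ifng among them, were at 0. The 1 UMI of Ifnb1 was in KO 5_plus6. Whether members made interferon was not detectable at this depth.

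**Figure D2:**
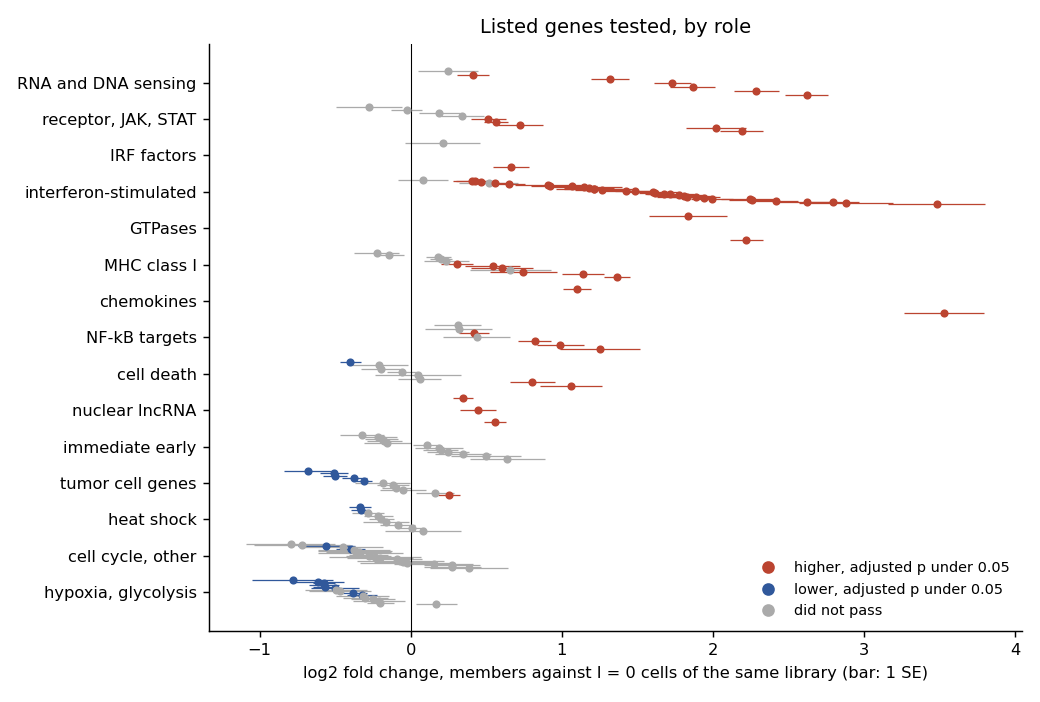
Log2 fold change of each listed gene that was tested (x axis, bars of 1 SE) in members against I = 0 cells of the same library, grouped by role (y axis), with colored points for genes past an adjusted p of 0.05. Of the effectors 32 of 34 were higher, and of the hypoxia and glycolysis genes 8 of 16 were lower and 0 higher.

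GTPases that attack the vacuoles of pathogens were mostly below the filter, since 2 of 17 measured genes were tested. Gbp7 was 235 and 153 CPM in members of WT batch1 and KO batch1 and between 328 and 686 in batch 2, against 18.2 to 220 in I = 0 cells. It rose by 2.22 ± 0.11 (adjusted p = 5.42e-28), and Irgm1 rose by 1.83 ± 0.26. Gbp7 lies at chr3:142530342-142550149 beside the rule gene Gbp3, and the Gbp genes are similar in sequence.

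Of 23 measured genes of MHC class I, 12 were tested, 6 were higher and 0 lower, with a median of 0.42. DESeq2 called 3 of the 12 higher, and with no filter 3 of 23 were higher and 1 lower. Nlrc5, the transactivator of class I genes, was between 338 and 526 CPM in members of batch 2 and between 113 and 237 in I = 0 cells, and it rose by 1.37 ± 0.09 (adjusted p = 2.21e-22). Tapbp, which loads peptide, rose by 1.14 ± 0.14, Erap1, which trims it, by 0.75 ± 0.22, and the transporter subunit Tap2 by 0.61 ± 0.21. The class I heavy chain H2-K1, a member of a family of near-identical genes, was at 0.31 ± 0.11 (adjusted p = 0.037) and did not pass in batch 2 alone (edgeR adjusted p = 0.617) or in DESeq2 (adjusted p = 0.173). Without the filter, where other genes moved down as well, Erap1 (edgeR adjusted p = 0.161) and Tap2 (0.329) did not pass either. All 7 class II genes were below the filter.

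Of 12 measured chemokine genes, 2 were tested, Ccl5 and Ccl2, and both were higher. With no filter 5 of 11 were higher, and Ccl20, Cxcl1 and Cxcl5 were at 0 in all members. Ccl5, which attracts T cells and monocytes, was 263 and 112 CPM in members of WT batch1 and KO batch1 and between 22.97 and 102 in batch 2. In I = 0 cells it was between 1.39 and 9.27, below every member value, and the log2 fold change was 3.53 ± 0.26 (adjusted p = 9.56e-19). With so low a level in I = 0 cells, Ccl5 could pass the filter through members alone. Without the filter its log2 fold change was 3.32. Ccl2, a monocyte chemokine that E0771 cells make in quantity, was between 507 and 1483 in members of batch 2 and between 180 and 670 in I = 0 cells, with a log2 fold change of 1.10 ± 0.09. Cxcl10, an attractant of activated T cells, was under the filter. Its level was 44.9 and 38.2 in members of WT batch1 and KO batch1, and between 11.5 and 106 in batch 2, against 1.20 to 5.20 in I = 0 cells, with 1 to 15 UMIs per library. Cxcl9 had 17 and 21 UMIs in members of batch 1, 2 in KO 5_plus6 and 0 in the other 7 libraries.

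NF-kappaB targets, which answer tumor necrosis factor and sensor signals, were higher in 4 of 7 tested, among them the ubiquitin editor Tnfaip3 by 1.25 ± 0.27, the macrophage growth factor Csf1 by 0.99 ± 0.16 and the inhibitor Nfkbia by 0.82 ± 0.11. Nfkbia was 0.38 against the matched cells and did not pass there (adjusted p = 0.115). Of 8 cell death genes tested, Casp4, the sensor of bacterial lipid in the cytosol, rose by 1.06 ± 0.21 and Mlkl, the executor of necroptosis, by 0.81 ± 0.15, while Gsdme fell by 0.40 on the log2 scale. Of the checkpoint genes, Cd47, the signal against phagocytosis, rose by 0.25 ± 0.07. The call was lost without the filter (0.05, edgeR adjusted p = 0.891), in the fit where other genes moved down as well. None of 4 p53 targets and none of 12 immediate early genes passed the test.

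Gm44148 had the largest log2 fold change of all genes, 3.98 ± 0.13, but it is uncertain. This noncoding gene (chr6:121255203-121272685, minus strand) overlaps the rule gene Usp18 (chr6:121245906-121270917, plus strand), and it was at 20.7 CPM in members of WT batch1, far below batch 2. The antisense gene Dhx58os, which rose by 2.35 ± 0.20, overlaps Dhx58 in the same way.

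**Figure D3:**
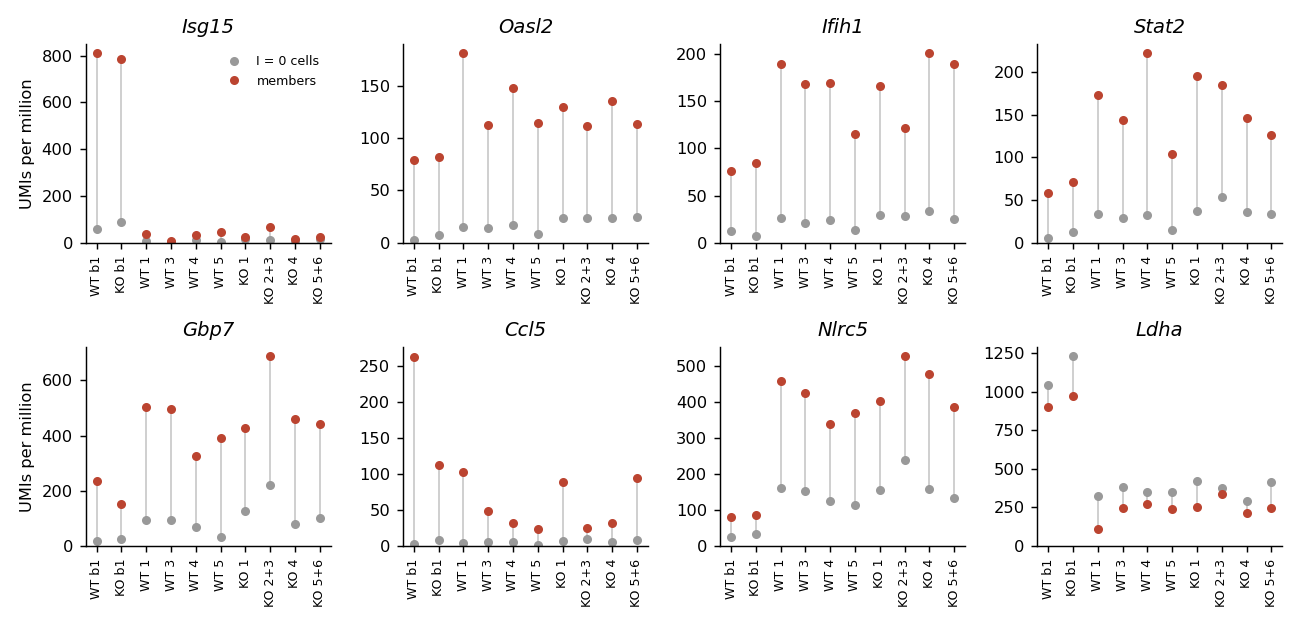
Level (CPM, y axis) of 8 genes outside the rule in members (red) and in I = 0 cells (grey) of each library (x axis, b1 for batch 1). Oasl2, Ifih1, Gbp7, Nlrc5 and the others named as higher lay above the I = 0 value in each of the 10 libraries, and Ldha, a glycolysis gene, lay below it.

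Hypoxia, glycolysis and ribosomal protein genes were among the lower genes, though most of the 513 were on no list. Of 16 hypoxia and glycolysis genes tested, 8 were lower and 0 higher, with a median of -0.42 on the log2 scale. Against matched cells 3 of 10 were lower, and in DESeq2 5 of 16. Ldha, which turns pyruvate into lactate, fell by 0.57 (SE 0.08, adjusted p = 1.94e-08), Gapdh by 0.58 (SE 0.07) and Eno1 by 0.57 (SE 0.10). Ldha was between 110 and 336 CPM in members of batch 2 and between 291 and 421 in I = 0 cells, and it was lower in each library. Vegfa, the angiogenic factor, fell by 0.78 (SE 0.27), a call that was lost in batch 2 alone (edgeR adjusted p = 0.178). Among ribosomal protein genes, a list added after values had been seen, 68 of 80 tested were lower and 0 higher, with a median of -0.31. Against matched cells 24 of 73 were lower, with a median of -0.27. Fewer were also lower in DESeq2 (39 of 80), in batch 2 alone (44 of 81) and with a limit of 5 UMIs (32 of 80). Of 9 heat shock genes, Hspa8 and Hsp90ab1 fell by 0.34 and 0.33. The epithelial keratin Krt8 fell by 0.68 (SE 0.16), and by 0.55 in batch 2 alone, where it did not pass.

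Falls of single genes reached further than those groups. Lbh, a regulator of transcription, fell by 1.14 (SE 0.23), the zinc finger gene Zfp512b by 1.12 (SE 0.24) and Fam118a by 1.06 (SE 0.26), each from a mean of 36.4 to 48.5 CPM in I = 0 cells and, in members, from 0 to 12 UMIs per library. Wrb, a receptor for tail-anchored proteins, fell by 0.88 (SE 0.11, adjusted p = 4.86e-10). The other 6 of the 10 largest falls that were lower in all 10 libraries were Ak6, Chmp1a, Spcs3, Ddah1, Fbxo31 and Lsm4, with log2 fold changes between -0.86 and -0.77.

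Malat1 and Neat1, noncoding RNAs that stay in the nucleus, rose by 0.56 ± 0.07 and 0.35 ± 0.07, and 3 of 3 tested genes of that list were higher. Without the filter Malat1 was the 1 of 6 that passed, while Neat1 (0.13, edgeR adjusted p = 0.123) and Kcnq1ot1 (0.24, edgeR adjusted p = 0.347) did not. Other genes moved down in that fit as well. With a limit of 5 UMIs 1 of 3 passed, and against matched cells 2 of 3. The 6 genes of the list summed to a median of 6342 CPM in members and 4536 in I = 0 cells and were higher in members of all 10 libraries, and the part of nuclear RNA in the falls named above was not tested.

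Markers of other cells were counted in members and in I = 0 cells. The macrophage list, 14 genes that the rule did not use, summed to a median of 87.6 CPM in members (57.4 to 136) and 56.3 in I = 0 cells (46.9 to 74.9), and was higher in members of all 10 libraries. In leukocyte barcodes, with at least 3 UMIs of the 6 leukocyte genes and none of the 5 tumor genes, the median was 3333. The level there was 23776 and 24016 in WT batch1 and KO batch1, and between 1591 and 4942 in batch 2. The most abundant gene of the list in members was Cd53, with 33 of 168 UMIs. None of the 14 genes passed the filter. The 13 T and NK cell genes gave 120 UMIs in members, 94 of them from Ikzf2, and Cd3g, Trbc2, Cd8a, Cd8b1, Nkg7 and Gzmb were at 0. The monocyte list gave 201 UMIs over 9 genes, 101 of them from Vcan, which rose by 0.59 ± 0.17 and did not pass in batch 2 alone (0.43, edgeR adjusted p = 0.178). Chil3, S100a8 and S100a9 were at 0. The monocyte list and the T and NK cell list were each higher in members of 8 of 10 libraries. In KO batch1 the monocyte list was at 219 CPM in members against 65.5 in I = 0 cells, led by Fn1 with 52 UMIs. B cell genes gave 2 UMIs. The 8 fibroblast genes were lower in members of 9 libraries, but in KO batch1 they were at 2164 CPM in members against 582 in I = 0 cells, led by the collagen gene Col3a1 with 206 UMIs. The 7 pericyte genes were at 259 CPM in members of WT batch1 against 87.6 in I = 0 cells and were higher in members of 4 of 10 libraries. The 8 endothelial genes gave 144 UMIs and were also higher in members of 4, with 210 CPM against 61.7 in KO batch1. Doublets were not removed, and the part of leukocyte or stromal RNA in the rises was not tested.

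The share of members asks whether tumor cells with at least 3 UMIs of the rule genes were more frequent in hosts with loss of Ago1 in ECs. Free RNA can add such UMIs to any cell, and in batch 2 the 9 genes were at 199 to 339 CPM in WT and 316 to 359 CPM in KO in barcodes of at most 50 UMIs. No background share from a cell type lacking these genes was computed, and the part of free RNA in the share was not tested. In WT it was 13.5% of tumor cells below the mitosis limit in WT batch1, and 1.58%, 1.97%, 1.23% and 1.20% in WT 1, WT 3, WT 4 and WT 5. In KO it was 20.7% in KO batch1, and 2.33%, 3.54%, 2.91% and 2.44% in KO 1, KO 2_plus3, KO 4 and KO 5_plus6. Each KO library was above each WT library of its batch. The difference between means was 2.49 percentage points (p = 0.0143 in an exact permutation of labels inside each batch, two-sided, where 140 arrangements allow no smaller value). Batch 1 carried much of that size. The batch 2 libraries by themselves differed by 1.31 points (exact p = 0.0286, with 70 arrangements and no smaller value possible). Exact binomial 95% intervals, which cover counting error only, overlapped for the nearest libraries of batch 2, at 1.63% to 2.36% in WT 3 and 1.96% to 2.74% in KO 1. They were 0.894% to 1.57% in WT 5 and 2.99% to 4.16% in KO 2_plus3.

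A cell with more UMIs reaches 3 more easily, so each cell was also thinned to 1000 UMIs and shallower cells were left out. The share was then 1.70%, 1.75%, 2.06%, 1.37% and 0.669% in WT batch1, WT 1, WT 3, WT 4 and WT 5. It was 3.01%, 2.37%, 2.71%, 3.54% and 2.46% in KO batch1, KO 1, KO 2_plus3, KO 4 and KO 5_plus6. The 5 KO libraries were above the 5 WT libraries with no overlap, and the batches no longer stood apart. The means were 1.51% ± 0.53 in WT and 2.82% ± 0.47 in KO (SD, n = 5), a difference of 1.31 points (exact permutation test, p = 0.0143). At 1000 UMIs, 1877 of 9398 cells remained in WT 4 and 3504 of 6212 in WT 5. The direction held at 500 UMIs (0.405 points, exact p = 0.0571) and at 2000 UMIs (1.65 points, exact p = 0.129), but neither passed. The groups overlapped at both depths. KO 5_plus6 (0.747%) was below WT 1 (0.808%) at 500 UMIs, and WT 3 (5.58%) was above KO 1 (3.74%) at 2000 UMIs. At 2000 UMIs as few as 194 cells remained in a library.

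**Figure D4:**
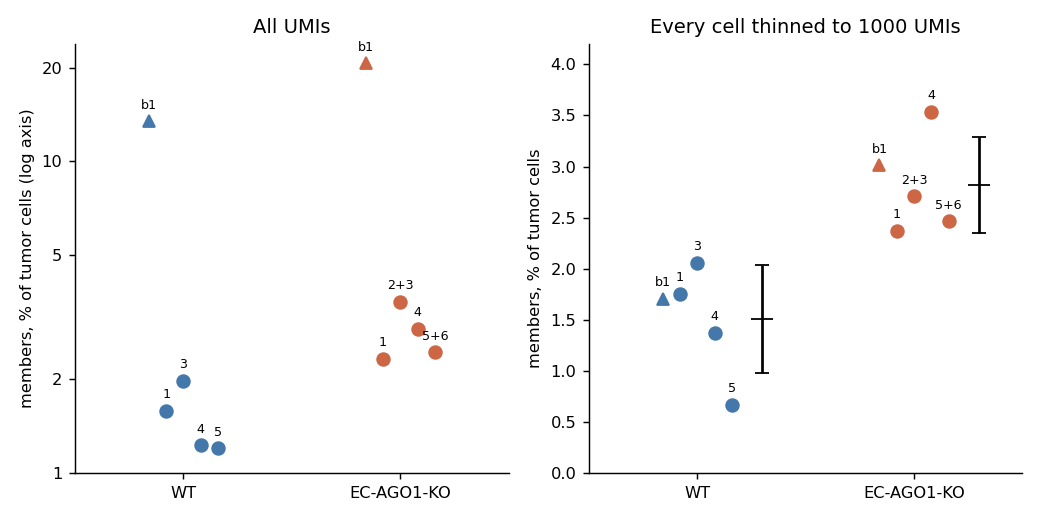
Members as a share of tumor cells below the mitosis limit (%, y axis) in each WT and EC-AGO1-KO library (x axis), with all UMIs on a log axis at left and after thinning each cell to 1000 UMIs at right, where black bars are mean ± SD over 5 libraries. Thinned shares were 0.669% to 2.06% in WT and 2.37% to 3.54% in KO, with no overlap.

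The 9 rule genes were also summed over all tumor cells, mitotic ones included. The level was 153 and 214 CPM in WT batch1 and KO batch1. In batch 2 it was 298, 308, 337 and 135 in WT 1, WT 3, WT 4 and WT 5, and 363, 402, 381 and 342 in KO 1, KO 2_plus3, KO 4 and KO 5_plus6. The KO libraries were above the WT libraries of their batch, though KO 5_plus6 and WT 4 were close. The same order was seen in cells with fewer than 3 UMIs of the 5 tumor genes, so it was not particular to tumor cells. Their level was 904 and 1109 in WT batch1 and KO batch1. In batch 2 it was 271 to 356 in WT and 371 to 617 in KO. On the log2(value + 1) scale the difference in tumor cells was 0.53 (exact permutation test, p = 0.0143). WT 5, the deepest and lowest WT library of batch 2, carried much of it, since the difference was 0.29 without it (exact p = 0.0286). The call was lost without KO 1 (0.54, exact p = 0.0571), KO 2_plus3 (0.50, exact p = 0.0714), KO 4 (0.52, exact p = 0.0571) or both pooled KO libraries (0.53, exact p = 0.167). Barcodes with at most 50 UMIs, which hold mainly free RNA, had levels near those of tumor cells, at 135 and 159 in batch 1, 199 to 339 in WT of batch 2 and 316 to 359 in KO of batch 2, where the groups overlapped. In bulk sums of this kind, more responsive cells and more RNA per cell cannot be told apart, and the part of free RNA in the difference was not tested.

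**Figure D5:**
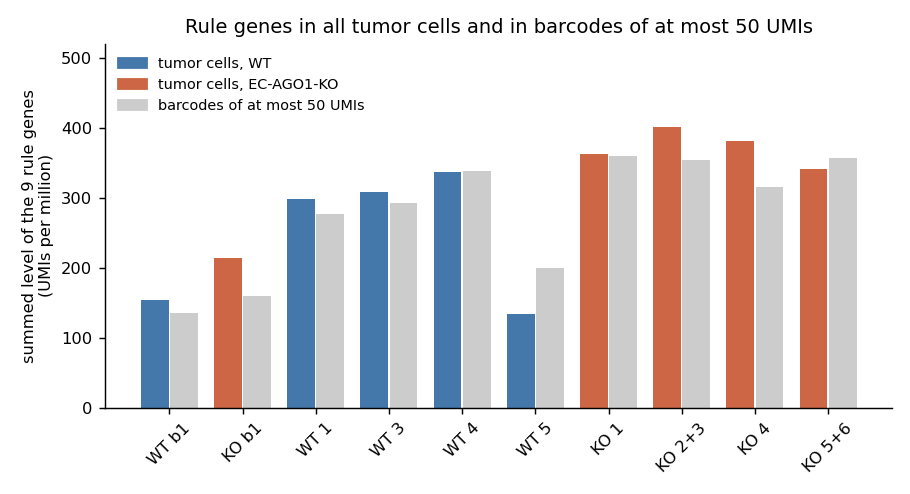
Summed level of the 9 rule genes (CPM, y axis) in all tumor cells of each library (colored bars) and in barcodes of at most 50 UMIs of the same library (grey bars). Tumor cells of batch 2 were at 135 to 337 in WT and at 342 to 402 in KO, and the grey bars were at 199 to 339 in WT and at 316 to 359 in KO.

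Gene by gene, no difference between tumor cells of KO and WT hosts passed the test with the filter on low counts. Of 11520 genes tested with batch as a covariate, 0 passed (0%, edgeR), 642 had an unadjusted p under 0.05 (329 of them higher in KO, 2.86% of all tested), and DESeq2 also called 0, with 567 at an unadjusted p under 0.05. All 9 rule genes had positive log2 fold changes with a median of 0.37, beside 5667 of all 11520 genes and a median of -0.0041. Ifit1 was 29.2 and 45.9 CPM in WT batch1 and KO batch1. In batch 2 it was 10.8, 11.5, 10.6 and 4.78 in WT and 19.5, 17.1, 21.2 and 21.0 in KO, without overlap. Its log2 fold change was 0.92 ± 0.19, and its adjusted p was 0.858. Rsad2 (0.61 ± 0.21), Gbp3 (0.63 ± 0.23) and Herc6 (0.37 ± 0.21) also had KO levels above WT in batch 2 with no overlap and the same adjusted p of 0.858, while the groups overlapped for the other 5 rule genes, Ifit2, Ifit3, Parp14, Usp18 and Ddx60. Ifit2 (0.11 ± 0.19) turned its sign in batch 2 alone. Irf7 was at 0.65 ± 0.25, Isg15 at 0.51 ± 0.26 and Cxcl10 at 0.42 ± 0.36.

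Lists outside the rule differed in how many genes were positive, and none held a gene past the test. Of the effectors, 59 of 61 tested genes had a positive log2 fold change, with a median of 0.28 that was 0.175 without WT 5. All 9 tested GTPase genes were positive with a median of 0.72, which was 0.57 without WT 5 and 0.44 without the pooled KO libraries. MHC class I genes were positive in 18 of 20 with a median of 0.25, which was 0.14 without the pooled KO libraries. Nucleic acid sensors were positive in 9 of 15 and IRF genes in 3 of 6, beside 49.2% of all genes. All 4 tested MHC class II genes were positive too, with a median of 0.48. Some lists other than the interferon lists also leaned to positive values, with 13 of 15 immediate early genes (median 0.20) and 13 of 16 NF-kappaB targets. The same held for 12 of 15 tumor identity genes and 60 of 81 ribosomal protein genes. Others did not, with 8 of 17 hypoxia and glycolysis genes, 4 of 10 heat shock genes and 3 of 11 Argonaute and microRNA genes positive. Cell cycle genes were positive in 15 of 27 and fibroblast genes in 1 of 6. Receptor, kinase and STAT genes were positive in 10 of 17 with a median of 0.08, which was -0.0059 without the pooled KO libraries. Ago1 was 4.94 ± 0.93 CPM in tumor cells of WT hosts and 5.33 ± 0.84 in those of KO hosts (SD, n = 5), a log2 fold change of 0.06 ± 0.20 (adjusted p = 0.977). Since tumor cells were not targeted, it is no check of the genotype labels.

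Within members, no gene passed the test between hosts with the filter on low counts. Of 2963 genes tested in members, 0 passed (0%, edgeR), 174 had an unadjusted p under 0.05, and DESeq2 called 0, with 83 at an unadjusted p under 0.05. The difference between members and I = 0 cells was tested for a change with the host as an interaction, and 0 of 5780 genes passed in edgeR, with 260 at an unadjusted p under 0.05, and 0 in DESeq2, with 111.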

How the data were processed

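The authors deposited raw UMI counts per gene and barcode, empty droplets included, made with Cell Ranger 7.1.0 on mm10 per the labels. No cell annotation was used. A barcode counted as a cell with 200 to 7000 detected genes and a mitochondrial share of 10% or less. The members, gene lists and tests were chosen with earlier results of these data known. Library totals were 8323896 to 10591577 UMIs. Counts were summed per library over members, I = 0 cells or tumor cells and tested in edgeR 4.0.16 (TMM, filterByExpr, quasi-likelihood, R 4.3.3), with DESeq2 1.42.0 as an alternative. The 26 genes of the rule were left out of the member fits. SEs were derived from the log2 fold change and its F statistic. Shares were compared by exact permutation of labels within batch, and p-values measure the spread between libraries. Thinned shares are means of 20 draws. Named genes are the 15 largest rises and 10 largest falls with an adjusted p under 0.05 and 1 sign in all libraries, plus examples from the lists by role. Fits were tested on simulated data. Gene positions are from GENCODE M21. Of the named genes, 1 is not reported here.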

Additional observations from a re-analysis of the deposited data

Results flagged for a closer look

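Each value in a group of 4 or 5 libraries was checked for 1 library far from the others (Dixon's criterion at 95%), in 116 groups, of which chance alone marks about 1 in 20. Most marks set batch 1 apart. The share of members was 13.5% in WT batch1 and 20.7% in KO batch1, far above the rest of each genotype. Median UMIs per tumor cell below the mitosis limit were 9157 in WT batch1 and 11413 in KO batch1. In members of WT batch1, Gm44148 was at 20.7 CPM, far below the other WT libraries, and Ak6 was at 41.5, above them. Isg15 was far above the rest at 809 in WT batch1 and 787 in KO batch1. Lsm4 was far above at 121 in WT batch1 and 183 in KO batch1. Within batch 2, WT 5 stood apart by its median of 1186 UMIs per tumor cell, and KO 2_plus3 stood apart by Gbp7 in members at 686 CPM.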

How the results depend on the processing

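Under the alternatives tried, the KO minus WT difference in the share of members kept its direction and its side of the threshold, and leaving out each library in turn gave 1.31 to 2.76 percentage points. It was 0.764 points with a limit of 5 UMIs and 0.786 with all cells as the denominator, against 2.49. After thinning to 1000 UMIs the leave-outs gave 1.10 to 1.46 points. Thinning to 500 UMIs gave 0.405 points and thinning to 2000 UMIs gave 1.65, and neither passed. The interferon level of tumor cells ranged from 0.29 (without WT 5) to 0.63 on the log2 scale over the leave-outs and did not pass without KO 1, KO 2_plus3 or KO 4, or without the 2 pooled KO libraries (0.53). With the replicate block (libraries sharing a number taken as a pair) the differences were 2.49 points, 1.31 points and 0.53, each at an exact p of 0.0417, and 0 genes changed in members or in tumor cells. Libraries with equal numbers did not deviate together (correlations -0.26 and -0.21), so the numbers were not taken as pairs.

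Genes higher and lower in members numbered 337 to 423 and 443 to 483 over the leave-outs. DESeq2 gave 306 lower genes. Without the filter 1345 were lower, and there the median of all genes was -0.39. Matched cells gave 139 higher and 213 lower with fewer genes tested, a limit of 5 UMIs gave 163 and 277 from fewer cells, batch 1 alone gave 32 and 2, and dropping the library block gave 219 and 155. Genes whose member difference changed with the host numbered 13 without the filter, 3 with a limit of 5 UMIs, 2 in batch 2 alone and 0 to 3 over the leave-outs. Genes changed in members by host numbered 26 without the filter, 1 without the pooled libraries and 0 to 1 over the leave-outs, and in tumor cells 34 without the filter and 0 over the leave-outs. The causes were not tested. Among the named genes of the member comparison, calls were lost for 41 in batch 1 alone, 5 in batch 2 alone, 9 with a limit of 5 UMIs, 9 without the library block, 7 without the filter, 4 in DESeq2 and 3 against matched cells, and 15 times over the leave-outs (H2-K1, Tap2, Vegfa and Vcan). None changed sign. Ddx60 between hosts ranged from -0.00065 (without WT 5) to 0.44 over the leave-outs, and Ifit2 from -0.0203 to 0.20, below 0 without WT 5 or either batch 1 library, and was -0.017 in batch 2 alone. Isg15 and Irf7 had few UMIs in members of batch 2, so their values there are imprecise. The cause of their gap between batches was not tested.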
